A study of Mus musculus with 33 samples.

Results

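The genes described here are 48 parts of the cell cycle machinery: cyclins and cyclin-dependent kinases, genes of DNA replication, genes of mitosis, and the inhibitors that hold the cycle back. They were taken as a fixed list of names, all 48 of which were present among the 14664 gene symbols of the deposited count table, and all 48 passed the filter on low counts, which left 14510 genes to test. Their levels were compared between 4 Dlx1/2 knockout and 4 wild-type RNA-seq libraries of ganglionic eminences, from mouse embryos of the CD1 strain at e13.5. The knockout embryos were Dlx1/2-/-, lacking the homeodomain transcription factors DLX1 and DLX2 that drive forebrain GABAergic neuron development, and the RNA of each genotype came from 4 embryos, 2 of either sex. Nothing more is stated of how embryos and libraries relate, so p-values measure the spread between these libraries. The series also holds 25 ChIP-seq and input samples, which were not used here because their peaks carry no gene names. Which cells of the eminences were collected for RNA is not stated beyond the name of the tissue. The ganglionic eminences are swellings of the ventral forebrain in which dividing progenitors line the ventricle and newborn GABAergic neurons accumulate outside them.

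In a dividing progenitor, D-type cyclins switch on CDK4 and CDK6, which phosphorylate the retinoblastoma protein and release E2F factors to induce genes of DNA synthesis. Cyclins E and A with CDK2 start and carry S phase, and cyclin B with CDK1 drives mitosis. The Cip/Kip inhibitors p21, p27 and p57 (Cdkn1a, Cdkn1b, Cdkn1c) and the INK4 inhibitor p18 (Cdkn2c) restrain these kinases, and in the embryonic brain p27 and p57 are known for taking progenitors out of the cycle as they become neurons.

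The libraries held 14.4 to 48.3 M counts in knockout and 20.2 to 117 M counts in wild type. Dlx1 was at 21.5, 22.8, 23.4 and 26.1 CPM (read counts set to a common library size after TMM scaling) in the knockout libraries, against 119, 121, 129 and 127 CPM in the wild-type libraries, and Dlx2 was at 1.024 to 1.501 CPM in knockout and 15.3 to 29.0 CPM in wild type. Which exons the allele removes is not stated. Gad1 and Gad2, which make GABA, were present in both genotypes and fell in knockout (log2 −1.35 and −1.49). Libraries numbered 1 and 2 stood apart from those numbered 3 and 4 in both genotypes on the leading principal component, which held 37.9% of the variance, while genotype separated on the second, which held 23% of it. The labels do not say what a replicate number stands for. It did not follow sex: Xist, the RNA of the inactive X chromosome, was at 367 and 397 CPM in knockout replicates 2 and 4 and 380 and 392 CPM in wild-type replicates 1 and 4, and at most 3.54 CPM in the other knockout and 1.63 CPM in the other wild-type libraries. RNA was measured in bulk tissue, so fewer cells of a type and less RNA per cell cannot be told apart.

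Of the 48 genes, 1 rose in knockout and none fell. The riser was Cdkn1a, and the test was edgeR's quasi-likelihood test with Benjamini-Hochberg adjustment over all 14510 genes at 0.05, knockout over wild type. Over all genes tested, 0.586% were called higher and 0.896% lower. The 4 knockout and 4 wild-type values did not overlap for 1 of the 48 genes, again Cdkn1a, where 5.98% of all genes tested had no overlap in either direction. At an unadjusted p under 0.05 there were 2 of the 48 (4.17%), Cdkn1a and Plk2, beside 7.69% of all genes tested. DESeq2 and limma-voom each called Cdkn1a and none of the other 47. Cdkn1a was also the only one of the 48 under an adjusted p of 0.05 in the authors' deposited table, at a log2 change of 1.08. With the replicate number as a block, Cdkn1a rose and Plk2 fell, where 2.22% of all genes were called higher and 2.16% lower. The median log2 change of the 48 genes was 0.007, beside −0.003 for all genes tested.

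**Figure D1:**
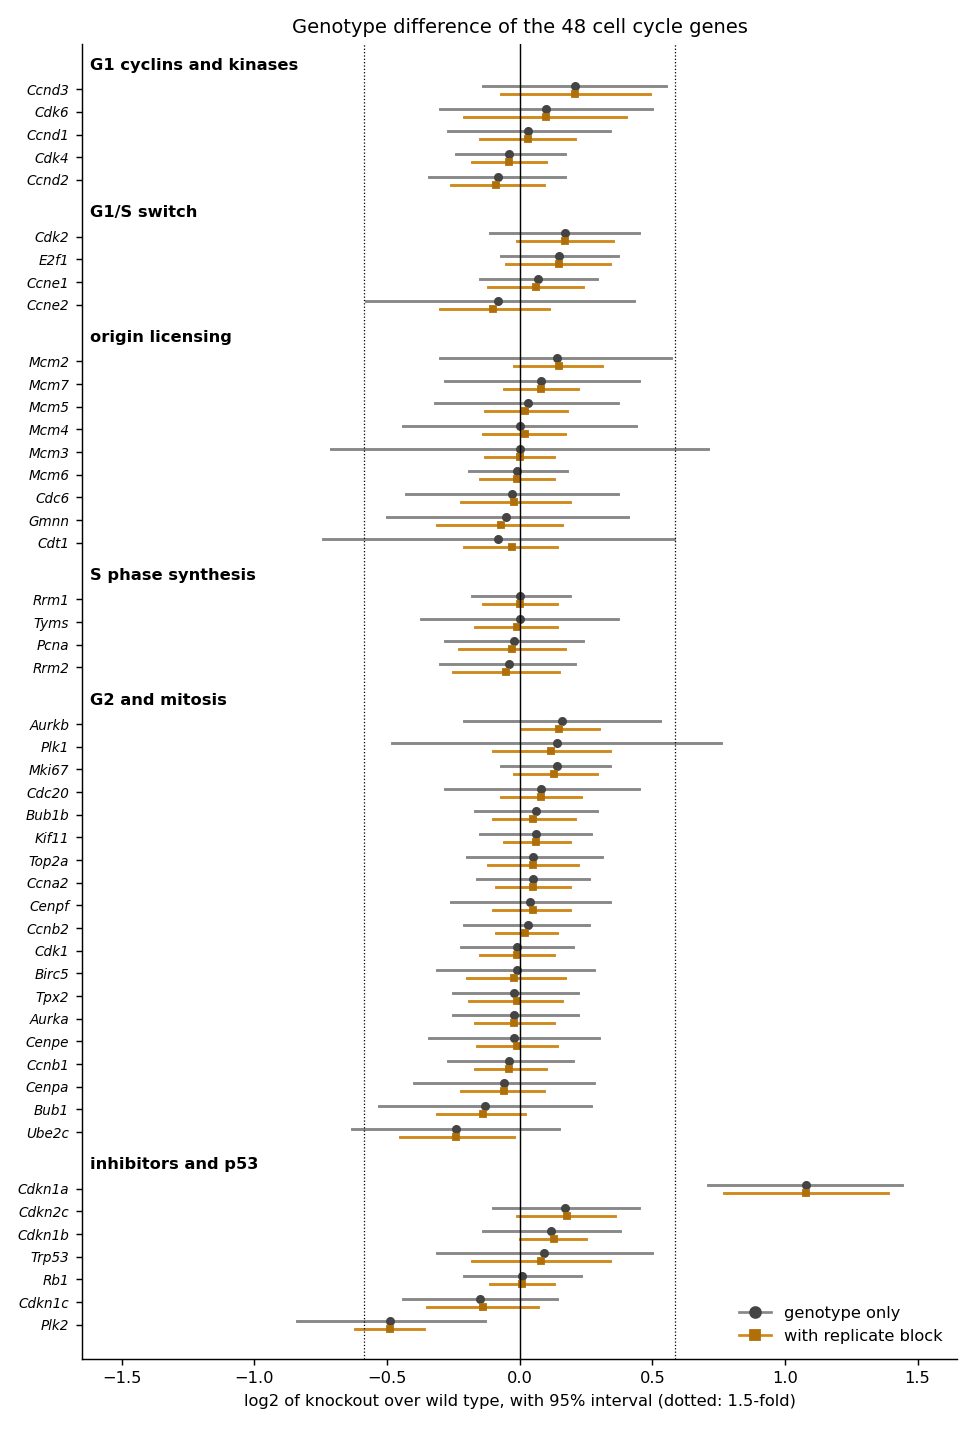
Log2 of knockout over wild type (x axis) with 95% intervals for the 48 genes, grouped by role, from the fit on genotype only (grey, circles) and with the replicate number as a block (orange, squares). Dotted lines mark 1.5-fold. The interval of Cdkn1a, from 0.71 to 1.44, lies to the right of the upper line, and that of Plk2, from −0.84 to −0.13, lies below 0.

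The brake that rose was Cdkn1a, which encodes p21, an inhibitor of cyclin-CDK complexes and a classical target of p53. It was at 8.23, 10.5, 10.6 and 9.78 CPM in knockout replicates 1 to 4, against 4.18, 3.51, 5.52 and 5.34 CPM in wild-type replicates 1 to 4. Every knockout library lay above every wild-type library. The means were 9.77 ± 1.09 CPM in knockout and 4.64 ± 0.954 CPM in wild type (SD, n = 4 each), a 2.11-fold difference with a 95% interval of 1.64-fold to 2.71-fold (log2 1.08, SE 0.16, edgeR adjusted p = 0.0082). These levels rest on 158 to 502 reads per knockout library and 71 to 478 reads per wild-type library, and over the 8 libraries only Trp53 of the 48 had fewer. Within libraries 1 and 2 alone the log2 change was 1.26 (edgeR adjusted p = 0.0051), and within libraries 3 and 4 alone it was 0.91 (edgeR adjusted p = 0.0433). Both fits are parts of the same 8 libraries, with 2 of each genotype, and are not separate replications.

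The promoter letters around Cdkn1a are printed because it is the gene of the list that changed, beside Plk2, which passed the test with the replicate block but not on genotype only. RefSeq lists 2 starts for Cdkn1a, and the windows are the 150 bases before the downstream start of Cdkn1a and before the start of Plk2, build GRCm38.p6. Capitals mark the GC box letters GGGCGG on either strand.
Cdkn1a (chr17:29093619-29093768, plus strand): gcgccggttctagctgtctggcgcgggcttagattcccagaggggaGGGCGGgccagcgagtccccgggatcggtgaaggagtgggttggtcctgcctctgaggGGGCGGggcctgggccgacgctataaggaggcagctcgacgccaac
Plk2 (chr13:110394894-110395043, plus strand): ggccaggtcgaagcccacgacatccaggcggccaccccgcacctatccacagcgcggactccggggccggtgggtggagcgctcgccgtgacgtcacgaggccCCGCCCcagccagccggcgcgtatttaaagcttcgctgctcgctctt
Cdkn1a held the GC box at 104 and 46 bases before its start and Plk2 at 47 bases before its start, counted to the first letter of the match. GC box letters occurred in the 300-base promoter (250 bases before to 50 after the start) of 38.2% of the 27025 genes in the RefSeq promoter table, and of 81.6% of the 38 cell cycle genes found there. For all motif shares, a gene was counted if any of its listed starts held the letters. The 27025 genes were not limited to those tested for expression. The homeodomain letters TAATTA, searched on both strands like all motifs here, occurred in 6.12% of all genes and in 1 of the 38, Cdkn2c. Neither printed window held them.

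Plk2 is a polo-like kinase that, unlike the mitotic Plk1, responds to p53 and acts at centrioles and in neurons. It was at 127, 123, 184 and 159 CPM in knockout replicates 1 to 4, against 175, 180, 232 and 242 CPM in wild-type replicates 1 to 4. The knockout value was below the wild-type value in each of the 4 number-matched pairs, and the 2 groups overlapped only because knockout replicate 3 lay above wild-type replicates 1 and 2. The log2 change was −0.49 (SE 0.16, 95% interval −0.84 to −0.13), which did not pass the test (edgeR adjusted p = 0.28). With the replicate block the same change had SE 0.06 and passed (edgeR adjusted p = 0.0009). Within libraries 1 and 2 it was −0.51 (edgeR adjusted p = 0.0048), and within libraries 3 and 4 it was −0.47 (edgeR adjusted p = 0.0434). These fits reuse the same libraries, 2 of each genotype at a time, and are not separate replications.

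The other inhibitors did not pass the test. Cdkn1b, the p27 gene, was at 142, 139, 156 and 171 CPM in knockout, against 132, 116, 155 and 158 CPM in wild type (log2 0.12, SE 0.12, 95% interval −0.14 to 0.38). The groups overlapped, and each knockout value lay above the wild-type value of the same number. Cdkn1c, the imprinted p57 gene, was at 59.6, 54.8, 50.8 and 59.5 CPM in knockout, against 58.0, 50.4, 65.9 and 75.6 CPM in wild type (log2 −0.15, SE 0.13, 95% interval −0.44 to 0.14). Its knockout values lay within the wild-type range. Cdkn2c, the p18 gene, was at 22.8, 25.5, 21.3 and 22.3 CPM in knockout, against 23.4, 22.9, 18.3 and 16.9 CPM in wild type (log2 0.17, SE 0.12, 95% interval −0.10 to 0.45). Rb1, the retinoblastoma gene, was at 104 to 129 CPM in knockout and 104 to 121 CPM in wild type (log2 0.01, SE 0.10). Trp53, the p53 gene, was at 4.234 to 6.46 CPM in knockout and 4.201 to 6.036 CPM in wild type (log2 0.09, SE 0.18, 95% interval −0.31 to 0.50). None of these 5 passed with the replicate block, where their adjusted p ran from 0.3392 for Cdkn1b to 0.9749 for Rb1 (edgeR). Summed over the 7 genes of this group, the level was 463 to 556 CPM in knockout and 482 to 622 CPM in wild type, with a knockout mean at 91.9% of that in wild type. Without Plk2, which is no CDK inhibitor, the other 6 summed to 340 to 375 CPM in knockout and 302 to 380 CPM in wild type, with a knockout mean at 104% of that in wild type.

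**Figure D2:**
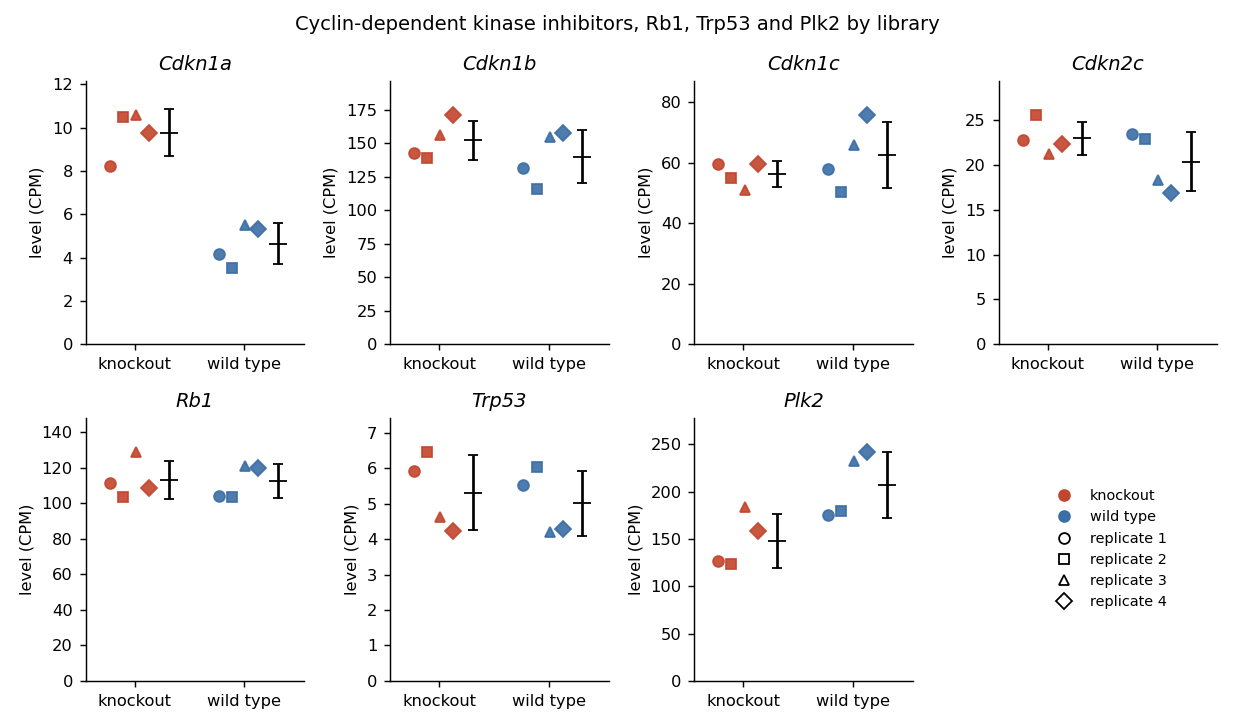
Level in CPM (y axis, from 0) of the 7 inhibitors and p53-side genes in each of 4 knockout (red) and 4 wild-type (blue) libraries, with marker shapes for the replicate number and black bars for mean and SD. Cdkn1a is the panel in which the genotypes do not overlap, at 8.23 to 10.6 CPM in knockout and 3.51 to 5.52 CPM in wild type, and in the Plk2 panel each knockout marker lies below the wild-type marker of the same shape.

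The 41 genes of the engine itself gave no call in either direction, with or without the replicate block (edgeR adjusted p at or above 0.3058 for each with the block). None was under an unadjusted p of 0.05 on genotype only, beside 7.69% of all genes tested. With the block 2 of the 41 were, Ube2c and Aurkb, beside 13.8% of all genes. Their log2 changes ran from −0.24 to 0.21 with a median of 0.004, and their summed level was 6508 to 7687 CPM in knockout and 6681 to 7145 CPM in wild type. The intervals say how large a difference these libraries leave room for: 37 of the 41 intervals (90.2%) lay wholly inside 1.5-fold in either direction, beside 72.1% of all genes tested. With the replicate block all 41 did (100%), beside 79.3% of all genes. The 4 that did not on genotype only were Cdt1, Mcm3, Plk1 and Ube2c.

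Among G1 genes, Ccnd2, the D cyclin of forebrain basal progenitors, was at 392, 339, 290 and 379 CPM in knockout, against 339, 373, 352 and 417 CPM in wild type (log2 −0.08, SE 0.11). Ccnd1 was at 221 to 316 CPM in knockout and 202 to 272 CPM in wild type (log2 0.03, SE 0.14). Ccnd3 was at 8.49 to 12.7 CPM in knockout and 7.42 to 10.3 CPM in wild type (log2 0.21, SE 0.15). Their partner kinase genes Cdk4 (log2 −0.04, SE 0.09) and Cdk6 (log2 0.10, SE 0.18) overlapped between genotypes as well. The summed level of these 5 genes in knockout was 97.7% of that in wild type.

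At the G1/S switch, E2f1, which turns on S phase genes, was at 45.9, 50.5, 44.5 and 55.9 CPM in knockout, against 47.7, 41.6, 44.4 and 43.6 CPM in wild type (log2 0.15, SE 0.10, 95% interval −0.07 to 0.37). Cdk2, the S phase kinase, had a log2 change of 0.17 (SE 0.12), and its cyclins Ccne1 and Ccne2 had changes of 0.07 (SE 0.10) and −0.08 (SE 0.23). Ccne1 was the steadier cyclin, at 17.9 to 23.8 CPM in knockout and 19.5 to 20.3 CPM in wild type, while Ccne2 spread over 21.5 to 44.4 CPM in knockout and 26.9 to 43.9 CPM in wild type.

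Origin licensing loads the MCM helicase onto DNA through Cdc6 and Cdt1, and Gmnn encodes geminin, which blocks Cdt1 after S phase begins. None of the 9 licensing genes was called, and their log2 changes ran from −0.08 for Cdt1 to 0.14 for Mcm2. Mcm6 was the steadiest, at 341, 333, 288 and 346 CPM in knockout, against 326, 336, 334 and 317 CPM in wild type (log2 −0.01, SE 0.08, 95% interval −0.19 to 0.18). Mcm3 was the most variable by its standard error, at 81.1, 66.3, 128 and 159 CPM in knockout, against 80.0, 66.7, 143 and 142 CPM in wild type. Libraries 3 and 4 were high and libraries 1 and 2 low in both genotypes, so the log2 change of 0.00 had SE 0.32 on genotype only and an interval of −0.71 to 0.71, which the replicate block narrowed to −0.13 to 0.13. Mcm4 (0.00, SE 0.20), Mcm5 (0.03, SE 0.15), Mcm7 (0.08, SE 0.16), Cdc6 (−0.03, SE 0.18) and Gmnn (−0.05, SE 0.20) had log2 changes within 0.1 of 0.

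Genes of DNA synthesis had log2 changes from −0.04 to 0.00, and none was called. Rrm1 and Rrm2, subunits of ribonucleotide reductase, had log2 changes of 0.00 (SE 0.08) and −0.04 (SE 0.11). Tyms, which makes thymidylate, had a change of 0.00 (SE 0.17), and Pcna, the sliding clamp of DNA polymerase, was at 73.6 to 106 CPM in knockout and 91.4 to 101 CPM in wild type (log2 −0.02, SE 0.12). The summed level of these 4 genes in knockout was 99.4% of that in wild type.

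Promoter letters of 1 licensing gene and 1 synthesis gene are printed to show E2F-type letters. These were found in most licensing promoters and in 2 of the 4 synthesis promoters. The windows are the 150 bases before the RefSeq start in build GRCm38.p6, and capitals mark E2F-type letters (TTCCCGC, its variant TTGGCGC, its variant TTCGCGC and its variant TTGCCGC, on either strand).
Mcm6 (chr1:128359706-128359855, minus strand): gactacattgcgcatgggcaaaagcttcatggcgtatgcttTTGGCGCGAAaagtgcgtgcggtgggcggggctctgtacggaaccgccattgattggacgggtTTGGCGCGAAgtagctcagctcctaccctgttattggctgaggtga
Rrm1 (chr7:102441545-102441694, plus strand): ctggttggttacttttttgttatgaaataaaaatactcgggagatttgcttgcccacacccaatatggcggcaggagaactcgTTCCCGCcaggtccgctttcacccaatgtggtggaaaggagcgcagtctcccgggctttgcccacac
In Mcm6 the capitals begin 109 and 46 bases before the start, each holding a match on either strand that overlap each other, and in Rrm1 67 bases before the start. E2F-type letters occurred in 6 of the 7 licensing genes with a promoter in the table (85.7%) and in 2 of the 4 synthesis genes, against 10.9% of all genes.

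The 19 genes of G2 and mitosis gave no call, and 17 of their intervals lay inside 1.5-fold. Mki67, which encodes the Ki-67 protein used to stain cycling cells, was at 401, 339, 386 and 430 CPM in knockout, against 328, 364, 359 and 364 CPM in wild type (log2 0.14, SE 0.09, 95% interval −0.07 to 0.34). Knockout replicate 2 lay within the wild-type range and the other 3 knockout libraries above it. Top2a, the topoisomerase of chromosome condensation, was at 634 to 797 CPM in knockout and 635.5 to 792 CPM in wild type (log2 0.05, SE 0.11). Cdk1, the mitotic kinase, was at 207, 224, 181 and 214 CPM in knockout, against 217, 225, 202 and 189 CPM in wild type (log2 −0.01, SE 0.09). Its cyclins Ccna2 (0.05, SE 0.09), Ccnb1 (−0.04, SE 0.11) and Ccnb2 (0.03, SE 0.11) had log2 changes as close to 0.

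The lowest log2 change of the group was that of Ube2c, the ubiquitin-conjugating enzyme of the anaphase-promoting complex. It was at 47.1, 39.4, 31.3 and 48.3 CPM in knockout, against 43.6, 46.3, 41.8 and 64.6 CPM in wild type (log2 −0.24, SE 0.17, 95% interval −0.63 to 0.15). Wild-type replicate 4 was high and knockout replicate 3 low, and the groups overlapped. The highest was that of Aurkb, the kinase of the chromosomal passenger complex, at 51.2 to 80.3 CPM in knockout and 47.8 to 67.1 CPM in wild type (log2 0.16, SE 0.17). Its partner in that complex, Birc5, had a log2 change of −0.01 (SE 0.13), and the spindle kinase Aurka and its activator Tpx2 both had −0.02 (SE 0.11 and 0.10). The mitotic polo-like kinase Plk1 had 0.14 (SE 0.28), and Cdc20, which activates the anaphase-promoting complex, had 0.08 (SE 0.16). The checkpoint kinase genes Bub1 (−0.13, SE 0.18) and Bub1b (0.06, SE 0.10), the centromere genes Cenpa (−0.06, SE 0.15), Cenpe (−0.02, SE 0.14) and Cenpf (0.04, SE 0.13), and the spindle kinesin gene Kif11 (0.06, SE 0.10) completed the group on the log2 scale.

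Promoter letters of 2 mitotic genes are printed to show the CHR letters, found in most of the G2 and mitosis promoters. The windows are again the 150 bases before the RefSeq start in build GRCm38.p6, and capitals mark the cell cycle genes homology region (CHR, TTTGAA and the variant TTCGAA) and CCAAT letters, each on either strand.
Cdc20 (chr4:118437344-118437493, minus strand): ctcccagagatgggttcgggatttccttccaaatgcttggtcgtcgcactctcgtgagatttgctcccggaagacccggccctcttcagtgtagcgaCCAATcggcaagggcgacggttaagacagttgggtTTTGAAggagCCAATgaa
Kif11 (chr19:37376232-37376381, plus strand): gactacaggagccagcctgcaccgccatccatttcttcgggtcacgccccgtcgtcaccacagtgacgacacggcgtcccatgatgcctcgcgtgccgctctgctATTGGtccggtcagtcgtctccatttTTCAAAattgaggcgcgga
In Cdc20 the CHR letters begin 18 bases before the start with CCAAT at 53 and 8 bases, and in Kif11 the CHR letters begin 19 bases before the start with CCAAT at 45 bases. CHR letters occurred in 13 of the 16 G2 and mitosis genes with a promoter in the table (81.2%), in 2 of the 7 licensing genes and in none of the 5 inhibitor and p53-side genes, against 21.7% of all genes. CCAAT was shared more widely: it occurred in 15 of the 16 mitotic genes, in 5 of the 7 licensing genes and in 3 of the 4 synthesis genes, in 73.7% of the 38 cell cycle genes together, and in 41.1% of all genes. The Mcm6 and Rrm1 windows above hold CCAAT letters on either strand as well, left in lower case there. The shares are a description and carry no test.

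**Figure D3:**
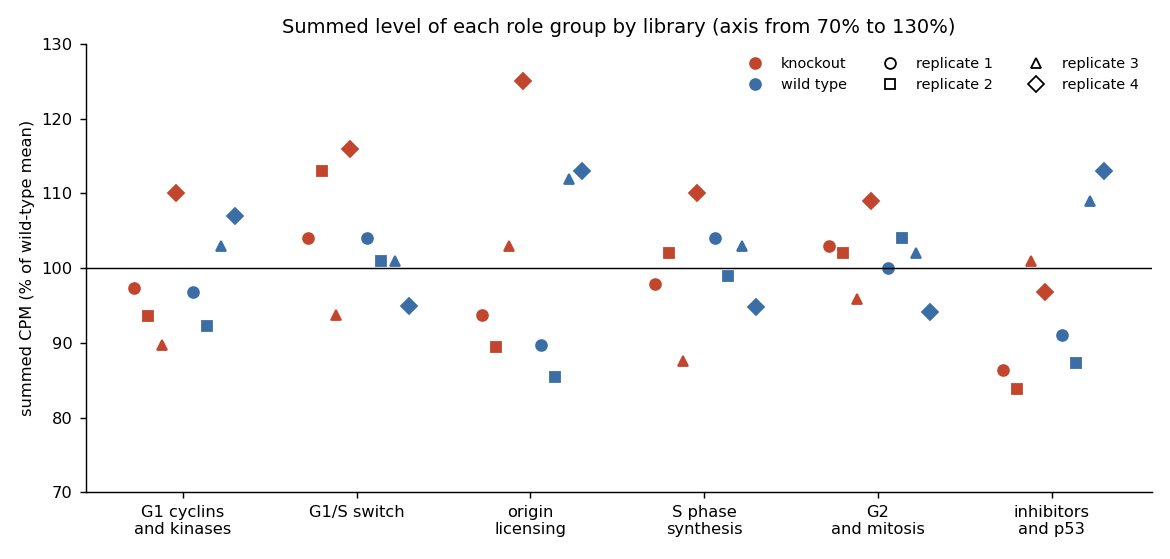
Summed CPM of the genes of each role group in each library, as a percentage of the wild-type mean of that group (y axis, drawn from 70% to 130%), for 4 knockout (red) and 4 wild-type (blue) libraries with shapes for the replicate number. Knockout and wild-type markers overlap in all 6 role groups, with group means in knockout from 91.9% of wild type for the inhibitors and p53-side genes (104% without Plk2) to 107% for the G1/S switch.

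The libraries differed more by replicate number than by genotype in many of these genes. For 15 of the 48, libraries 3 and 4 both lay above libraries 1 and 2 in knockout and again in wild type, and for 13 both lay below in each genotype, together 58.3% of the 48 beside 47.6% of all genes tested. The high ones included 7 of the 9 licensing genes (Mcm2, Mcm3, Mcm4, Mcm5, Mcm7, Cdc6 and Cdt1) with Plk1, Aurka, Aurkb and Cdc20. Mcm3 in libraries 3 and 4 was 1.94-fold its level in libraries 1 and 2 in knockout and 1.95-fold in wild type. The low ones included Gmnn, Ccne2, Tyms, Bub1, Ccnb1, Ccnb2, Cenpa, Cenpe, Cenpf, Birc5 and Kif11. Ccne2 in libraries 3 and 4 was 0.640 of its level in libraries 1 and 2 in knockout and 0.661 in wild type. Genes of 1 phase thus went both ways, and the summed mitotic level stayed within 3251 to 3694 CPM in knockout and 3189 to 3512 CPM in wild type. The sign of this difference was the same in both genotypes for 42 of the 48 genes (87.5%), and for 80.8% of all genes tested. Cdkn1a was not among the genes that separated by number in both genotypes, since knockout replicate 2 (10.5 CPM) exceeded knockout replicate 4 (9.78 CPM).

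**Figure D4:**
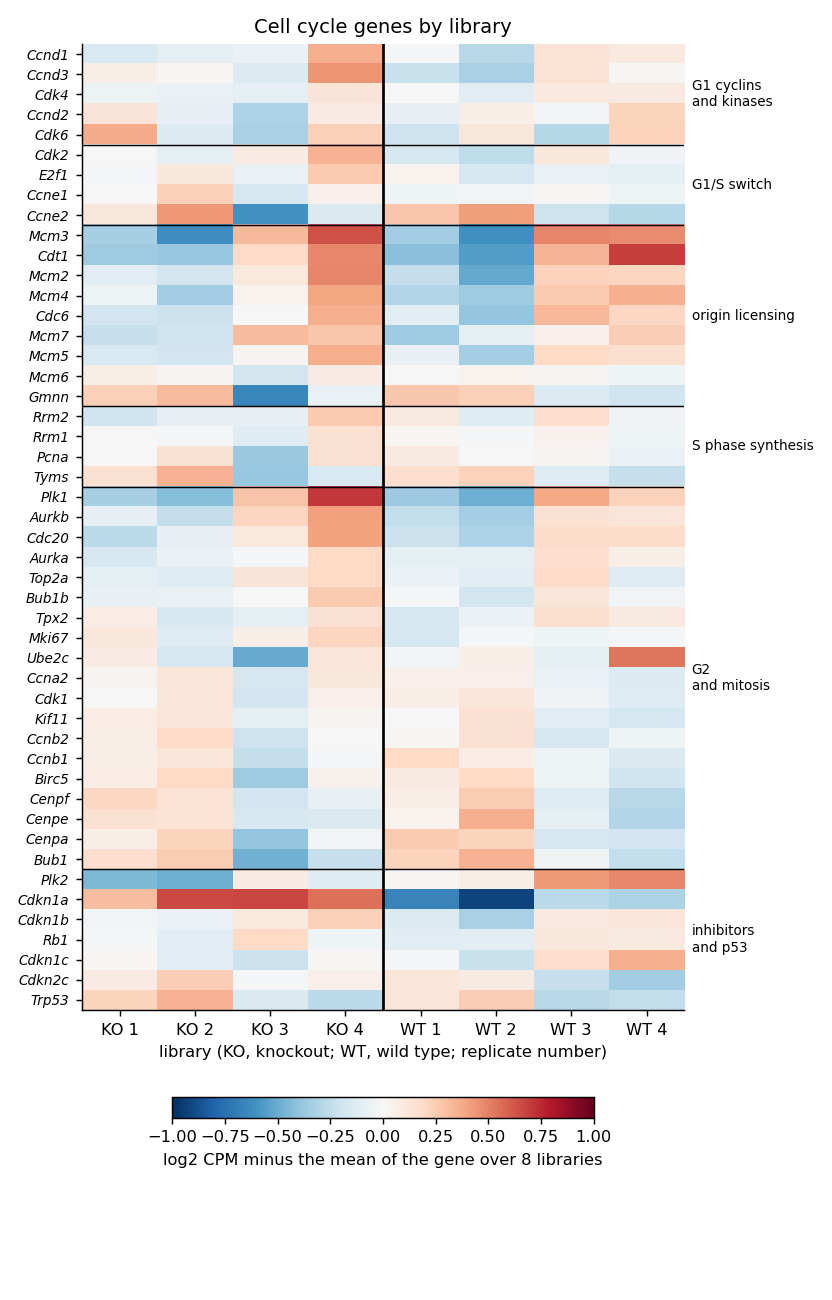
Level of the 48 genes (rows, by role group) in the 4 knockout and 4 wild-type libraries (columns), as log2 CPM minus the mean of the gene over the 8 libraries (colour, red above and blue below). Rows such as Mcm3, Cdt1 and Plk1 are blue in libraries 1 and 2 and red in 3 and 4 of both genotypes, Ccne2 and Gmnn run the other way, and Cdkn1a divides by genotype.

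Beyond these 48 genes, 165 other cell cycle and p53 response genes were tested from 6 lists, and 2 rose and none fell (0.586% of all genes were called higher). The 2 genotypes did not overlap for 5 of the 165, with 4 higher and 1 lower in knockout. Over all genes tested, 5.98% had no overlap in either direction. None of the 19 tested E2F, pocket protein and DREAM complex genes was called (median log2 −0.01), where E2f2 had the highest change at 0.23 (SE 0.09) and E2f7, a repressive E2F, the lowest at −0.20 (SE 0.17). E2f2 was at 33.2 to 39.0 CPM in knockout and 29.7 to 31.5 CPM in wild type, without overlap (edgeR adjusted p = 0.4656). None of the 40 genes of the replication origin and fork was called, with a range of log2 change from −0.16 for Rfc3, a clamp loader subunit, to 0.15 for Pold2, a DNA polymerase delta subunit. Of 12 tested kinases, phosphatases and other regulators of the CDKs none was called, with Cdkn2d, the p19 INK4 gene, highest at 0.20 (SE 0.28). Cks2, a small CDK-binding subunit, was the lowest, at 1.27 to 2.16 CPM in knockout and 2.44 to 3.69 CPM in wild type without overlap (log2 −0.67, SE 0.20, edgeR adjusted p = 0.2283), on 238 knockout and 486 wild-type reads.

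Among 23 genes of the anaphase-promoting complex and SCF ubiquitin ligases none was called. Fbxw7, the SCF subunit that targets cyclin E, was highest at a log2 change of 0.27 (SE 0.09) and Anapc13 lowest at −0.13 (SE 0.10). With the replicate block Fbxw7 rose (log2 0.26, edgeR adjusted p = 0.0169). Among 45 genes of the spindle checkpoint, kinetochore, kinesins and condensin none was called. Bub3, a checkpoint protein, was at 233, 234, 240 and 249 CPM in knockout, against 201, 194, 193 and 191 CPM in wild type. Its groups did not overlap, and its log2 change of 0.29 (SE 0.07, edgeR adjusted p = 0.0913) passed with the replicate block (edgeR adjusted p = 0.0094) and with DESeq2 (adjusted p = 0.00022). Hmmr was the lowest of that list at −0.13 (SE 0.14).

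Of 26 tested genes on the p53 response list, 2 rose and none fell, namely Gadd45g and Btg2. The share called higher over all genes tested was 0.586%. Whether the listed genes respond to p53 in this tissue was not tested. Gadd45g, a growth arrest gene of differentiating neural precursors, was at 76.7, 74.6, 83.1 and 89.3 CPM in knockout, against 36.5, 31.8, 40.5 and 50.9 CPM in wild type (log2 1.02, SE 0.14, edgeR adjusted p = 0.0049). Btg2, an antiproliferative gene of progenitors that are about to give rise to neurons, was at 245, 249, 272 and 246 CPM in knockout, against 146, 138, 140 and 119 CPM in wild type (log2 0.90, SE 0.09, edgeR adjusted p = 0.00053). For both, every knockout library lay above every wild-type library. Both genes also stand in the list of subventricular zone and cell cycle exit markers. The other 24 did not pass, among them Mdm2 (log2 −0.11, SE 0.09), Ccng1 (0.02, SE 0.15) and Bax (0.06, SE 0.07). Of the 26 tested, 16 had a log2 change above 0, and the list median was 0.07. Plk3, a stress-responsive polo-like kinase, had the highest change of those not called at 0.42 (SE 0.28), with an edgeR adjusted p of 0.0591 under the replicate block, and Gadd45a, a growth arrest gene, the lowest at −0.25 (SE 0.24).

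Markers of cell types in the tissue stood as follows beside the rise of Cdkn1a and the uncalled engine genes, and their part in these results was not tested. Of 9 subventricular zone and cell cycle exit genes, 3 rose (Btg2, Gadd45g and Hes6, log2 0.74), beside 0.586% of all genes tested. Under the replicate block 7 rose, beside 2.22% of all genes. The lowest log2 change of the list was −0.22, not called, with every knockout library below every wild-type library. The summed level of the list was 2407 to 2797 CPM in knockout and 1991 to 2492 CPM in wild type. None of 10 ventricular zone progenitor genes was called. With the block 3 of them rose (Sox2, Hes5 and Notch1), beside 2.22% of all genes. The summed level of these 10 genes was 2799 to 3400 CPM in knockout and 2191 to 2706 CPM in wild type, without overlap. None of 10 genes of postmitotic neurons was called, while with the block Stmn2 fell, beside 2.16% of all genes. The summed level of these neuron genes was 5074 to 5438 CPM in knockout and 5466 to 5985 CPM in wild type, again without overlap. The 12 microglia and macrophage genes gave no call, at a summed 52.4 to 69.1 CPM in knockout and 46.3 to 66.5 CPM in wild type. With the block Mrc1, a macrophage receptor, rose, beside 2.22% of all genes. None of 8 erythroid or 10 endothelial genes was called with or without the block, at a summed 1441 to 2071 CPM in knockout and 1699 to 1930 CPM in wild type for the erythroid list. The endothelial list summed to 137 to 199 CPM in knockout and 149 to 221 CPM in wild type. Of 12 pericyte and mesenchyme genes Pdgfra rose (log2 1.53), beside 0.586% of all genes tested. These 12 summed to 127 to 169 CPM in knockout and 101 to 118 CPM in wild type, without overlap. Of 5 tested choroid plexus and hem genes Otx2 rose (log2 1.20), beside 0.586% of all genes tested. These 5 went both ways, with 2 above 0 on the log2 scale, 3 below and a median of −0.324. For 1 of them every knockout library lay below every wild-type library. Their sum was 33.0 to 42.5 CPM in knockout and 26.4 to 31.5 CPM in wild type, without overlap. Of 11 genes of ganglionic eminence identity 4 fell (Lhx6, Ebf1, Gad1 and Gad2), beside 0.896% of all genes tested, and none rose. The list went both ways: 6 of the 11 had a log2 change above 0, up to 0.60, and the list median was 0.046. Its summed level was 447 to 528 CPM in knockout and 658 to 677 CPM in wild type. With the block 4 rose and 4 fell, beside 2.22% and 2.16% of all genes. None of 10 cortical glutamatergic genes was called with or without the block, at a summed 600.0 to 771 CPM in knockout and 571 to 684 CPM in wild type. No tested gene of these lists was at 0 reads over the 8 libraries. How often summed levels of other gene lists fail to overlap was not computed.

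**Figure D5:**
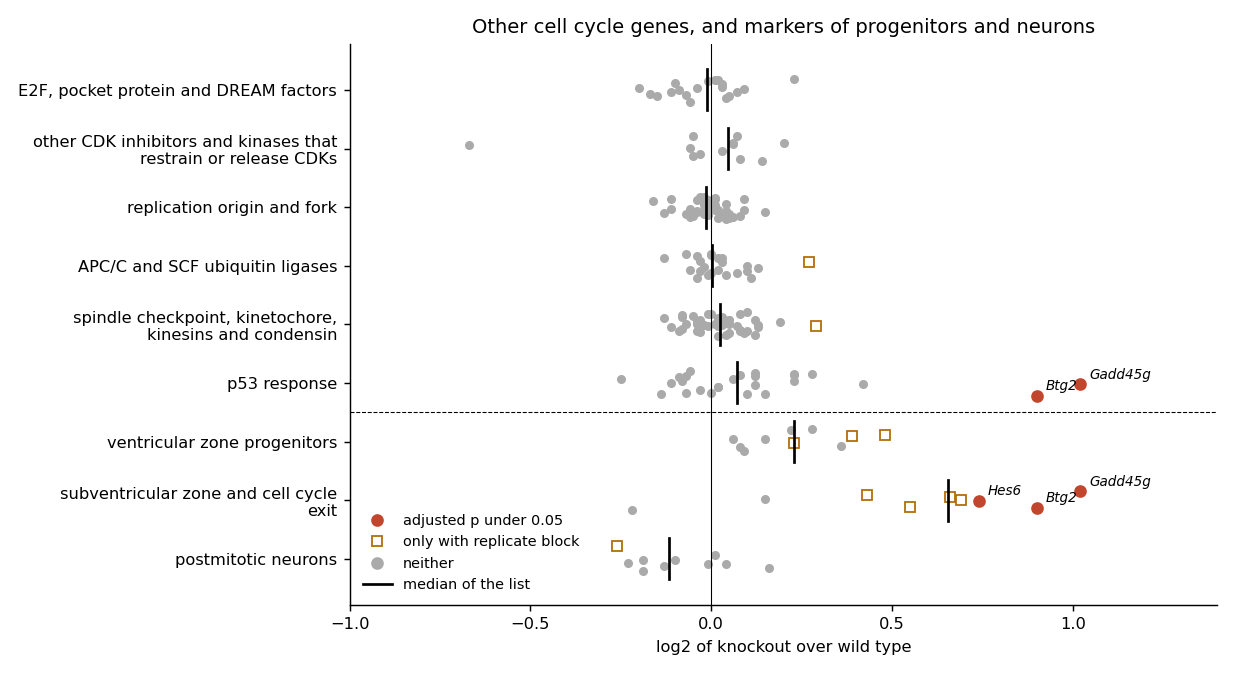
Log2 of knockout over wild type (x axis) of each tested gene in 6 lists of other cell cycle genes (above the dashed line) and 3 marker lists (below it), with red points for an edgeR adjusted p under 0.05, open squares for genes that passed with the replicate block alone, and black bars for list medians. The medians of the 6 upper lists lie between −0.02 and 0.07, and that of the cell cycle exit markers lies at 0.66.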

How the data were processed

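RNA-seq libraries of 4 knockout and 4 wild-type embryos were analysed, grouped by their titles. The authors deposited raw read counts per gene symbol, made with bcl2fastq and STAR 2.4.2a on build mm9 per the submitters' processing notes, from a stranded kit for ribosome-depleted RNA per the labels' protocols, although the labels call the molecule polyA RNA. Not given in the sources used here are the counter, the annotation and its strand setting. In the RefSeq table of GRCm38, 9 of the 48 genes overlap another gene of the count table (Ccnd3, Cdk4, Ccne2, E2f1, Mcm7, Ccna2, Aurka, Cdc20 and Rb1) and 6 share a name with a pseudogene (Ccnd3, Pcna, Tyms, Ccnb1, Ccnb2 and Trp53), so their reads are uncertain to that extent. The deposited table also holds the authors' log2 fold change and log2 mean level, a likelihood ratio score and p-values, of which the log2 fold change and adjusted p-value were read for the 48 genes.

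Counts were tested with edgeR 4.0.16 (R 4.3.3): filterByExpr at a minimum count of 10, TMM scaling, quasi-likelihood test, Benjamini-Hochberg adjustment at 0.05. Intervals are 95% intervals of the fitted log2 change, and the SE is that change over the square root of F. On simulated counts for 14438 genes a change of 1.5-fold was recovered for 29.9%, of 2-fold for 83.6% and of 4-fold for 100% of the altered genes, beside 5 false calls. Each simulated library was drawn independently, without the difference that libraries 1 and 2 and libraries 3 and 4 share across genes. These rates may therefore not hold for the real libraries. Alternatives used DESeq2 1.42.0, limma 3.58.1, other scalings and filters, thinning to 14.4 M counts, left-out libraries and a replicate block. Same-numbered libraries of the 2 genotypes deviated together from their genotype means over 13358 genes (Pearson r = 0.165, 0.35, 0.507 and 0.573 for numbers 1 to 4), the basis for the block, although numbers 1 and 2 matched more closely when crossed (0.697 for knockout 2 with wild-type 1, 0.501 for knockout 1 with wild-type 2). Crossing numbers 3 and 4 gave 0.255 and 0.243. By Xist, knockout 2 and wild-type 1 were of the same sex (367 and 380 CPM), as were knockout 1 and wild-type 2 (2.49 and 1.63 CPM). The block thus pairs libraries of opposite sex in numbers 1 and 2 and of the same sex in numbers 3 and 4. The part of sex in these matches and in the block calls was not tested. Genes were named by role group, and from each further list those called, and the highest and lowest not called, were named. Mdm2, Ccng1 and Bax were named in addition, after the data were seen. The 48 genes and the lists were chosen with earlier results of these data known. Promoters of 38 of the 48 genes were in the RefSeq table, and the GC box, TATA and homeodomain letters were added to the search after the data were seen. TATAAA occurred in 2 of the 38 and in 15.7% of all genes.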

Additional observations from a re-analysis of the deposited data

Results flagged for a closer look

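The highest or lowest library of 3 genes stood apart from the other 3 of its genotype by more than Dixon's criterion for 4 values. Ccnd1 was at 316 CPM in knockout replicate 4, against 221 to 236 CPM in the other knockout libraries. Cdk4 was at 919.6 CPM in knockout replicate 4, against 794 to 815 CPM in the other knockout libraries. Mki67 was at 328.5 CPM in wild-type replicate 1, the deepest library, against 359 to 364 CPM in the other wild-type libraries. Of 96 groups of 4 values checked, chance alone marks about 4.8.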

How the results depend on the processing

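Cdkn1a was higher in knockout and past the threshold under each of the 19 alternatives, at log2 changes from 0.91 to 1.26 and adjusted p from 7.7e-08 with DESeq2 to 0.0433 with replicates 3 and 4 only. Leaving out 1 library at a time gave 0.97 to 1.17. Among the 48 genes, 1 was called higher and 0 lower without any 1 library. The number called lower was 1, Plk2, with the replicate block, with replicates 1 and 2 only and with replicates 3 and 4 only. Plk2 ran from −0.61 to −0.40 on the log2 scale over the alternatives, and leaving out 1 library left it short of the threshold (adjusted p 0.1382 to 0.6399). The block changed no other call among the 48 genes. Of the 47 genes not called, 34 had a log2 change whose sign differed under at least 1 alternative. The count of intervals inside 1.5-fold was 42 of 48 on genotype only, 42 with limma-voom and 46 with the block, the last added after the data were seen. Summed role group levels moved by less than the spread between replicates with library totals only.

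Over all genes, 85 were called higher and 130 lower. The block gave 322 and 313, DESeq2 230 and 241, and replicates 1 and 2 only 178 and 202. Without 1 library the counts were 50 to 66 higher and 92 to 121 lower, with 50 higher without knockout replicate 1, 56 without knockout replicate 4, and 50, 55 and 54 without wild-type replicates 1, 2 and 3. The smallest library, knockout replicate 3, held 158 reads of Cdkn1a and 69 of Trp53, and wild-type replicate 2 held 71 reads of Cdkn1a. Such low counts limit the precision of both genes.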
